A study of Mus musculus with 108 samples.

Results

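The 94 genes described here carry the names of the nuclear-encoded subunits and assembly factors of oxidative phosphorylation, and they are 94 of the 23337 genes in the count table of the study. They were taken by symbol alone: every gene whose symbol begins with Nduf, Uqcr, Sdh, Cox4, Cox5, Cox6, Cox7, Cox8 or Atp5, plus Cycs and Cyc1. By role they are 7 core subunits, 29 accessory subunits and 4 assembly factors of complex I, 4 subunits and 2 assembly factors of complex II, 9 subunits of complex III, somatic cytochrome c (Cycs), 11 subunits of complex IV, 9 alternative forms or relatives of complex IV subunits, and 5 subunits of the F1 part and 10 of the membrane part and stalks of ATP synthase. The remaining 3 are no subunits and were caught by their symbols: Cox4nb, which the GENCODE M21 annotation calls Emc8 (a subunit of a membrane-protein insertion complex of the endoplasmic reticulum), Atp5s (Dmac2l) and Atp5sl (Dmac2). Genes of the mitochondrial DNA are not analysed here.

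The study sequenced whole hippocampus of mice at postnatal days (P) 0, 7, 14, 21 and 28, with 3 independent replicates at each age, and 93 single neurons of postnatal weeks 3 to 4. From hippocampal area CA1 came 19 cholecystokinin (CCK) interneurons, 14 parvalbumin (PV) interneurons and 25 pyramidal cells. From the neighbouring subiculum came 21 pyramidal neurons that fired in bursts and 14 that fired regularly. The labels give no strain, genotype, sex or treatment, and no animal for a cell, so each cell type counts as 1 sample. CA1 cells were amplified with version 3 of the SMARTer cDNA kit and tissue and subiculum cells with version 4. Tissue libraries held between 2341677 and 13262818 gene reads, and single cells between 30025 and 11694081.

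Oxidative phosphorylation passes electrons from NADH and succinate along the inner mitochondrial membrane to oxygen and uses the resulting proton gradient to make ATP. Complex I oxidises NADH, complex II oxidises succinate, complex III hands electrons to the soluble carrier cytochrome c, complex IV reduces oxygen, and ATP synthase makes ATP with its rotating F1 head. Neurons are known for spending most of this ATP on ion pumping after electrical and synaptic activity. The catalytic core of complex IV, cytochrome b of complex III and the membrane core of complex I are encoded in the mitochondrial DNA. The nuclear genes followed here supply the electron-entry arm of complex I, its accessory subunits and all of complex II. They also supply the other subunits of complexes III and IV and most of ATP synthase.

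Transcription of these genes is known to be driven through short promoter motifs for the factors NRF1, GABPA (also called NRF2) and YY1. RefSeq promoters on GRCm38.p6, from 250 bases before to 50 bases after the annotated start, were at hand for 77 of the 94 genes. The letters searched on both strands were GCGCA, any base and GCGC for NRF1, CCGGAAG for GABPA and AAGATGGCG for YY1, and 37 of the 77 promoters held at least 1 of them. The NRF1 letters were in 22.1% of the 77 promoters and in 9.59% of the promoters of all tested genes, the GABPA letters in 23.4% against 16.1%, and the YY1 letters in 9.09% against 2.81%. The letters TATAAA were in 3.9% against 4.45%. The promoters below belong to genes on which the results turn, and capitals mark the motifs: Sdha with 3 NRF1 matches and Sdhb with 1 GABPA match are partners in complex II that changed unequally, Cox8a and Uqcr11 (GABPA) rose furthest in their complexes, Cox6a1 carries both NRF1 and GABPA letters, Ndufs7 shows the YY1 letters just after the start, and Cox7a1, a form known from muscle, has none of the 3 motifs in this window.
Sdha (chr13:74350191-74350490, minus strand): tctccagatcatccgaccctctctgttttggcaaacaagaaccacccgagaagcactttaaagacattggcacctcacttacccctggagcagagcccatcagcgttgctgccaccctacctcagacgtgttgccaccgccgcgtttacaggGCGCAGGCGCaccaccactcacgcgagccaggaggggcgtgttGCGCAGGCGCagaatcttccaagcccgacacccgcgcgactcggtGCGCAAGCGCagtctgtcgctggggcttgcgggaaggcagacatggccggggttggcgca
Sdhb (chr4:140961021-140961320, plus strand): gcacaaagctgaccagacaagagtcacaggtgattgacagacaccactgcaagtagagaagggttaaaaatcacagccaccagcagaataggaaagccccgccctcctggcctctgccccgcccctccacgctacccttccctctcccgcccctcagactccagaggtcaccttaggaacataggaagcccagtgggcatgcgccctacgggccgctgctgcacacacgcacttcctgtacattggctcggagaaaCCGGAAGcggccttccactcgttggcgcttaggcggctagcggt
Cox8a (chr19:7217567-7217866, minus strand): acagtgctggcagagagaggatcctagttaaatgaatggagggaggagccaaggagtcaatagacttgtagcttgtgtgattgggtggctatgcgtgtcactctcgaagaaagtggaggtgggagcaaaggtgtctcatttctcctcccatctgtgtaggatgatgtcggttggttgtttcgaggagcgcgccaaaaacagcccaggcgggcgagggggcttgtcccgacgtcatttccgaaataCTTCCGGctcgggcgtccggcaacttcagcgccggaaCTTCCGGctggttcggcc
Uqcr11 (chr10:80406772-80407071, minus strand): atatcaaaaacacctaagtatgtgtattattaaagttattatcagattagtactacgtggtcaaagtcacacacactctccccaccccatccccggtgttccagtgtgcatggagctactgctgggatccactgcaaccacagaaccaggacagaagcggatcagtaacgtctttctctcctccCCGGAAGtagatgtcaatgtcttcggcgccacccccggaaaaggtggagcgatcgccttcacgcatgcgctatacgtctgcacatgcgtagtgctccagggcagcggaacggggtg
Cox6a1 (chr5:115348909-115349208, minus strand): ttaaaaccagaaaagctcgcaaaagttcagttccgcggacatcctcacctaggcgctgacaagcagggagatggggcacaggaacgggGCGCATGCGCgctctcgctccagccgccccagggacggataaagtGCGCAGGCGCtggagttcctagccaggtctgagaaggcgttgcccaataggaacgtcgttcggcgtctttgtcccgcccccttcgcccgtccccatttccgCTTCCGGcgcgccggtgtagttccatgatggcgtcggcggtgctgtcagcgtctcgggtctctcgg
Ndufs7 (chr10:80249199-80249498, plus strand): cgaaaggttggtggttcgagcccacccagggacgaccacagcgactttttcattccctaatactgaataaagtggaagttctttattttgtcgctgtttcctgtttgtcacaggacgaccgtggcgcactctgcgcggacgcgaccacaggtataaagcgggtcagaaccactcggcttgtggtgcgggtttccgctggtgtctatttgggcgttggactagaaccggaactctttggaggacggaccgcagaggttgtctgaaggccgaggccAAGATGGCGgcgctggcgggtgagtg
Cox7a1 (chr7:30183921-30184220, plus strand): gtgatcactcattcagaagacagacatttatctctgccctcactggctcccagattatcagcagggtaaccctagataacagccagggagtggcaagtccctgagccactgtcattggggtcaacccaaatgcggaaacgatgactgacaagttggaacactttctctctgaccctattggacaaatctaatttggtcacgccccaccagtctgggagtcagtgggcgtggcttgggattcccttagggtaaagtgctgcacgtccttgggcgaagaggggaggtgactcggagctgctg

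In all 7 promoters with the YY1 letters the match lay on the gene's own strand, between bases 23 and 36 after the start. In Cox6a1 the NRF1 letters at base -162 read the same on both strands and count as 1 site. The median log2 change between P28 and P0 was 0.60 over the 17 members with the NRF1 letters and 0.59 over the 58 without, 0.56 over the 18 members with the GABPA letters and 0.60 over the 57 without, and 0.69 over the 7 with the YY1 letters and 0.59 over the 68 without, counting members that were tested. The medians with and without each motif were thus close to each other. A match here is a description of the letters and not of a bound site.

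In whole hippocampus most of these genes rose during the first 2 postnatal weeks, and their summed share of reads was somewhat lower again at P28 than at P14 and P21. Of the 94 genes, 90 had enough reads to be tested, and the missing 4 were Cox4i2, Cox7b2, Cox8b and Cox8c. In the edgeR quasi-likelihood test, with Benjamini-Hochberg adjusted p under 0.05 over 14737 genes, 76 members were higher at P28 than at P0, 2 were lower and 12 were not called. Across all tested genes 32.9% were called higher and 31.3% lower between P28 and P0, 64.2% in all. The libraries of P0 and P28 did not overlap for 80 of the 90 members, beside 68.6% of all genes. The median log2 fold change was 0.60 over the members and 0.00 over all tested genes. Counted over all 5 ages together, 86 of the 90 members differed, beside 76.4% of all genes. Together the members took 0.900%, 0.896% and 0.917% of gene reads at P0, 1.10%, 1.09% and 1.18% at P7, 1.34%, 1.34% and 1.32% at P14, 1.404%, 1.295% and 1.303% at P21, and 1.24%, 1.24% and 1.23% at P28. The 3 libraries of P0 lay below all others, the P7 libraries lay between those of P0 and P14, the P14 and P21 libraries overlapped, and the 3 libraries of P28 lay below all those of P14 and P21 and above all those of P7.

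The cell makeup of the tissue moved over the same days. Immature-neuron markers summed to between 9750 and 10480 CPM (counts scaled to 1000000 gene reads per library) at P0 and between 1655 and 1995 at P28, and 10 of 10 fell. Oligodendrocyte markers summed to between 94.1 and 113.5 CPM at P0 and between 8888 and 11540 at P28, and 8 of 8 rose. All 10 markers of dividing cells fell, and 8 of 8 GABAergic neuron markers, 7 of 7 microglial, 6 of 8 astrocytic, 5 of 9 endothelial and pericyte, 4 of 7 excitatory neuron and 3 of 6 choroid plexus markers rose, while 2 of the 7 excitatory neuron markers fell. Their part in the change of the oxidative phosphorylation genes was not tested. In tissue, fewer cells of a type and less RNA per cell cannot be told apart.

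**Figure D1:**
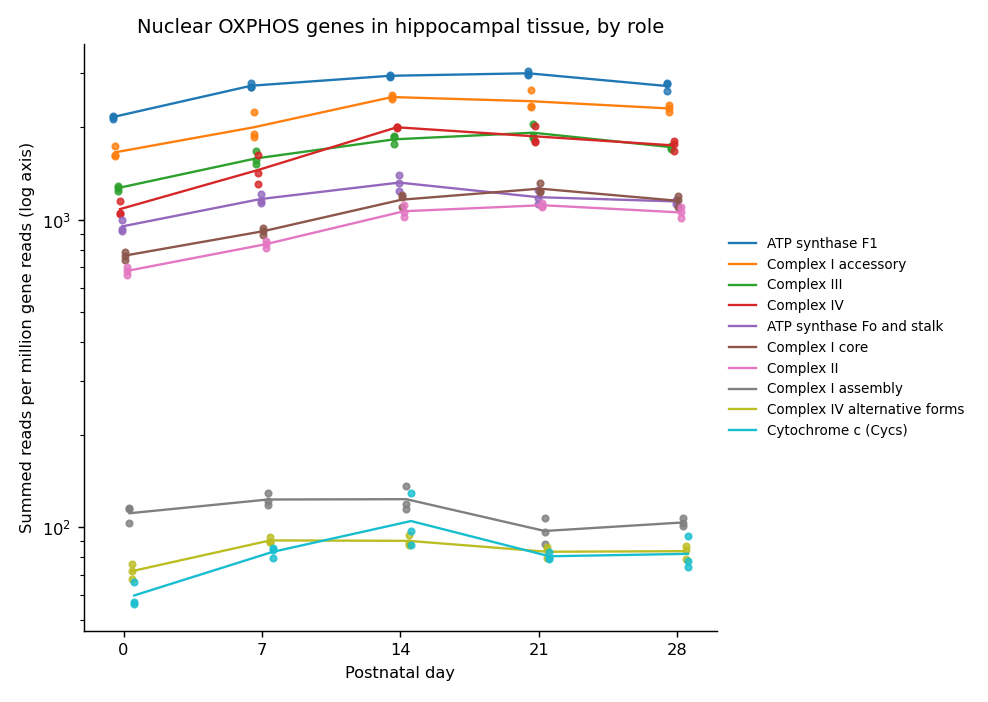
Summed CPM (log axis) of each role group against postnatal day, with points for the 3 libraries of an age, shifted sideways for legibility, and lines through the age means; the 2 complex II assembly factors and the 3 genes outside the complexes are not drawn. The complexes climb from P0 to P14 and stand lower at P28 than at their highest mean, complex IV going from a mean of 1084 at P0 to 2000 at P14 and 1746 at P28, while the complex I assembly factors do not climb with them.

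Complex I is the entry point for electrons from NADH. All 7 core subunits rose between P0 and P28, with a median log2 fold change of 0.72. Ndufs7, which carries the last iron-sulphur cluster before ubiquinone, was at 48.0, 57.1 and 60.2 CPM (TMM-scaled, as all tissue values of single genes here) at P0 and at 110, 125.5 and 113.9 at P28. The groups were far apart, and the log2 fold change was 1.05 ± 0.12 (SE, edgeR adjusted p = 2.74e-07), the largest of the core. Ndufv2, a subunit of the NADH-oxidising module, changed least of the core, from 144, 126.8 and 127.9 CPM to 208.6, 188 and 179 CPM, or 0.54 ± 0.08 on the log2 scale (edgeR adjusted p = 9.37e-06). Even there every P28 library was above every P0 library.

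Of the 29 accessory subunits of complex I, 26 rose, none fell and 3 were not called. Ndufa3, a small membrane subunit, went from 18.96, 17.01 and 20.1 CPM to 38.5, 53.0 and 60.4 CPM, a log2 fold change of 1.45 ± 0.17 (edgeR adjusted p = 4.88e-07). Ndufs5 showed the largest value of the group, 1.502 ± 0.27 (edgeR adjusted p = 5.89e-05), from 2.02, 3.53 and 2.45 CPM to 8.59, 7.61 and 7.94 CPM, and nearly all of it fell between P0 and P7. Its value is uncertain, since 41.2% of the 50-base words of its transcript also occur in the annotated gene BC002163, and its P0 libraries held 5, 38 and 30 reads. Ndufc2, by contrast, was at 62.5, 59.3 and 65.1 CPM at P0 and at 62.5, 58.4 and 56.1 CPM at P28, so the groups overlapped, with a log2 fold change of -0.08 ± 0.09 (edgeR adjusted p = 0.451). Ndufs4 (0.15 ± 0.10) and Ndufa7 (0.26 ± 0.12) were the other accessory subunits without a call (edgeR adjusted p = 0.211 and 0.0706).

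The complex I assembly factors, chaperone-like proteins that build the complex and are not part of it, did not move together. Ndufaf3 rose by 0.51 ± 0.17 on the log2 scale (edgeR adjusted p = 0.0113), from 14.5, 22.8 and 25.6 CPM to 28.4, 35.1 and 30.8 CPM. Ndufaf4 was at 49.2, 45.9 and 45.2 CPM at P0 and at 43.1, 34.8 and 34.1 CPM at P28, a log2 fold change of -0.32 ± 0.14 (edgeR adjusted p = 0.0475). That call was lost in 11 of 21 alternative settings. Ndufaf1 (0.33 ± 0.15) and Ndufaf2 (-0.29 ± 0.15) were not called. Their 4 values ranged from -0.32 to 0.51, below the median of the complex I core.

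Complex II, the succinate dehydrogenase shared with the citric acid cycle, changed unequally among its 4 subunits. The flavoprotein Sdha, which binds succinate, was at 311, 310 and 289 CPM at P0 and at 757, 728 and 657 CPM at P28, a log2 fold change of 1.24 ± 0.08 (edgeR adjusted p = 1.10e-10). The iron-sulphur subunit Sdhb, its direct partner, was at 195, 162 and 167 CPM and then at 197, 186 and 178 CPM, with a log2 fold change of 0.11 ± 0.08 (edgeR adjusted p = 0.248). Sdha libraries of P0 and P28 were thus separated by more than their whole spread, and those of Sdhb overlapped. The membrane anchors Sdhc (0.37 ± 0.10) and Sdhd (0.22 ± 0.08) rose less than Sdha (edgeR adjusted p = 0.00370 and 0.0232). Of the assembly factors, Sdhaf2, which inserts the flavin, rose by 0.37 ± 0.10 (edgeR adjusted p = 0.00231), and Sdhaf1 was not called at 0.28 ± 0.17, with 69.0% of its 50-base words shared with another annotated gene.

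All 9 subunits of complex III rose. Uqcr11, a small subunit, went from 38.7, 42.4 and 52.1 CPM to 87.9, 128.6 and 125.1 CPM, a log2 fold change of 1.33 ± 0.17 (edgeR adjusted p = 2.09e-06). The Rieske iron-sulphur protein Uqcrfs1, one of the 2 electron-carrying nuclear subunits, changed least, from 158, 156 and 150 CPM to 215.1, 192 and 195 CPM (0.38 ± 0.08, edgeR adjusted p = 3.91e-04). The other, cytochrome c1 (Cyc1), went from 163, 178 and 174 CPM to 243.3, 255 and 233 CPM (0.50 ± 0.08, edgeR adjusted p = 1.98e-05). Both electron carriers therefore sat at or below the complex's median of 0.54. Cycs, the mobile carrier between complexes III and IV, rose by 0.62 ± 0.13 (edgeR adjusted p = 4.10e-04), from 62.9, 51.8 and 52.7 CPM to 97.7, 76.6 and 79.2 CPM. Its level is uncertain, because 28.5% of its 50-base words also occur in other annotated genes, 79 in all.

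All 11 subunits of complex IV rose. Their median, 0.76 on the log2 scale, was the highest of any complex. Cox8a, a small membrane subunit in its widely used form, had the largest log2 fold change of the complex: 60.1, 74.1 and 81.8 CPM at P0, 123.4, 121.2 and 153 at P7, 251, 230 and 260 at P14, 259, 235.97 and 240 at P21, and 222.6, 237.1 and 239.4 at P28. That was a 3.18-fold rise (log2 1.67 ± 0.11, edgeR adjusted p = 6.44e-11), made in nearly equal steps to P7 (0.86) and P14 (0.89). Cox4i1, the widely used form of subunit 4, rose from 181, 203.1 and 201.2 CPM to 368, 362 and 357 CPM (0.89 ± 0.08, edgeR adjusted p = 4.95e-09). Cox6a1 rose by 1.00 ± 0.12, Cox7b by 0.88 ± 0.19, Cox6b1 by 0.62 ± 0.09, Ndufa4 (named for complex I but a complex IV subunit) by 0.57 ± 0.10 and Cox7a2 by 0.49 ± 0.11, all with edgeR adjusted p of 7.28e-04 or less. Cox5a rose least, by 0.26 ± 0.09 (edgeR adjusted p = 0.0136), from 123.8, 116.2 and 117.9 CPM to 145, 141 and 141 CPM.

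**Figure D2:**
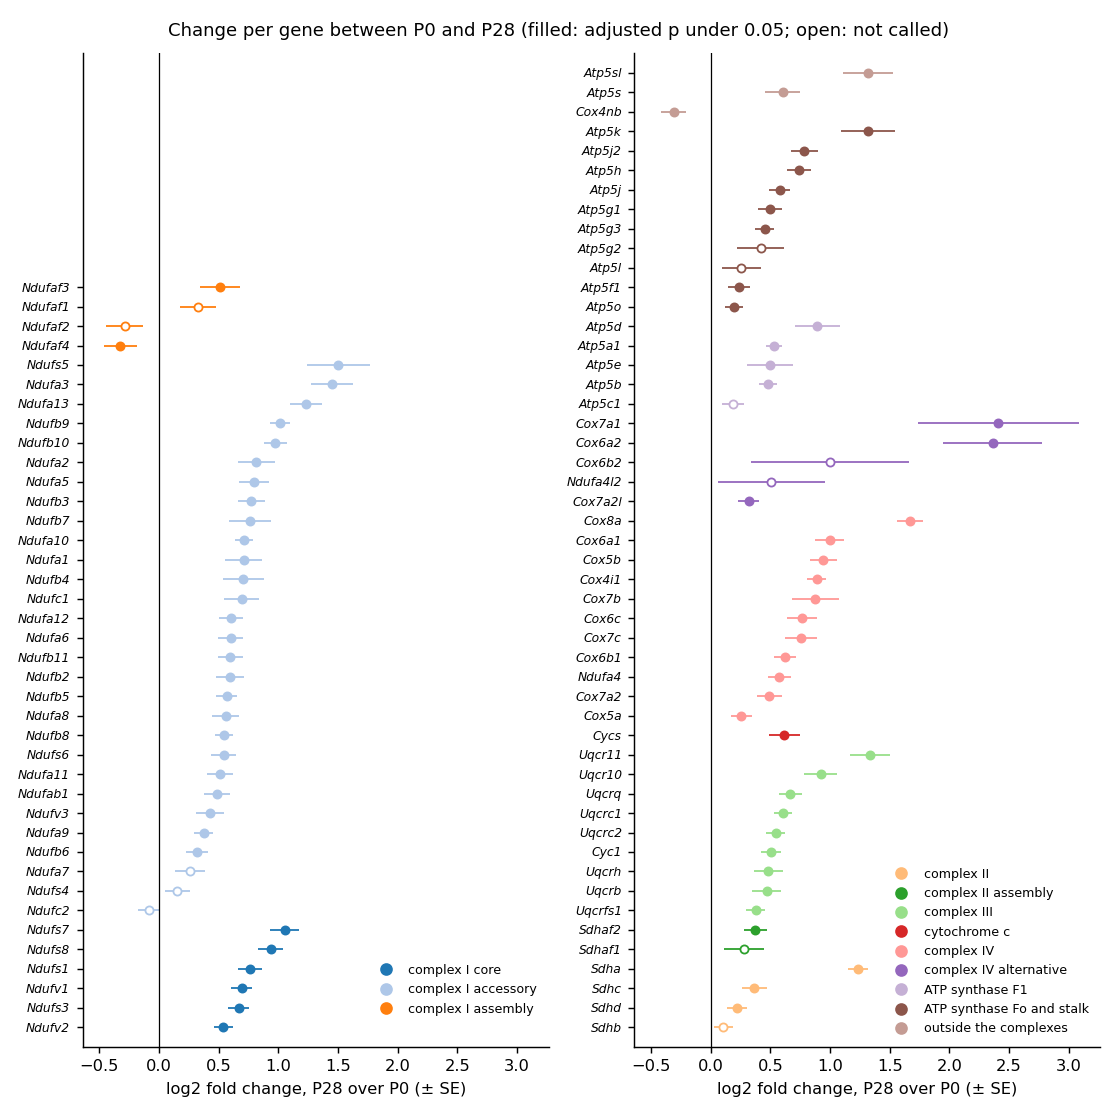
Log2 fold change of P28 over P0 for the tested genes reported here, with bars of 1 SE from the edgeR fit, ordered by role and then by size; filled points had an adjusted p under 0.05. Most points are filled and to the right of 0, Ndufaf4 and Cox4nb are filled and to the left, and 12 are open.

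Several complex IV subunits have a second gene, known from muscle, lung or testis, and these were low in hippocampus. Cox6a2, the heart and skeletal muscle form of Cox6a1, was at 0.403, 0.558 and 0.245 CPM at P0, 0.513, 0.610 and 0.851 at P7, 3.97, 2.66 and 2.72 at P14, 2.94, 2.85 and 2.95 at P21, and 2.22, 1.98 and 2.08 at P28. Every library from P14 on was above every library of P0 and P7. The step from P7 to P14 was 2.15 ± 0.38 on the log2 scale (edgeR adjusted p = 1.30e-04) and was the largest of any member in any step, on 2, 3 and 9 reads at P7 and 49, 12 and 33 at P14. Cox7a1, the muscle form of Cox7a2, was at 0.403, 0.186 and 0.0815 CPM at P0 and at 0.554, 1.16 and 0.925 CPM at P28, a log2 fold change of 2.41 ± 0.68 (edgeR adjusted p = 0.00417) on 1, 2 and 1 reads at P0. Muscle markers summed to between 14.9 and 17.7 CPM at P0 and between 22.3 and 28.0 CPM at P28, 3 of the 4 tested rose, and their part in these changes was not tested.

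Measured per kilobase of transcript, Cox6a2 made up 0.217 ± 0.093% of Cox6a1 and Cox6a2 together at P0 and 0.548 ± 0.077% at P28 (SD, n = 3), and Cox7a1 0.558 ± 0.382% of its pair at P0 and 1.55 ± 0.51% at P28. The difference had the smallest p that 3 against 3 libraries allow in both cases (exact permutation test, two-sided, p = 0.1). Cox4i2, the lung form of Cox4i1, moved the other way, from 0.375 ± 0.111% to 0.140 ± 0.057% (exact permutation p = 0.1). It had only 2, 9 and 6 reads at P0 and 2, 8 and 7 at P28. Its own level was 1.05 ± 0.28 CPM per kilobase at P0 and 0.66 ± 0.27 at P28. The share also falls when Cox4i1 rises, and Cox4i1 went from 282 ± 22 to 472 ± 2 CPM per kilobase. Cox7b2 was at 1.41 ± 0.49% of its pair at P28 against 0.475 ± 0.424% at P0 (exact permutation p = 0.1), on 2, 6 and 9 reads against 0, 1 and 2. For Cox6b2, Ndufa4l2 and Cox8b the exact permutation p was 0.5, 1.0 and 0.4. Cox8b had no read in the 6 libraries of P0 and P7 and between 0 and 6 reads in each later library, and Cox8c had none in any library. The widely used form thus supplied nearly all reads per kilobase of each of these pairs. Cox7a2l, a factor that joins complexes III and IV, was a common transcript and rose by 0.32 ± 0.09 (edgeR adjusted p = 0.00342), and Cox6b2 (1.00 ± 0.66) and Ndufa4l2 (0.51 ± 0.45) were not called.

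**Figure D3:**
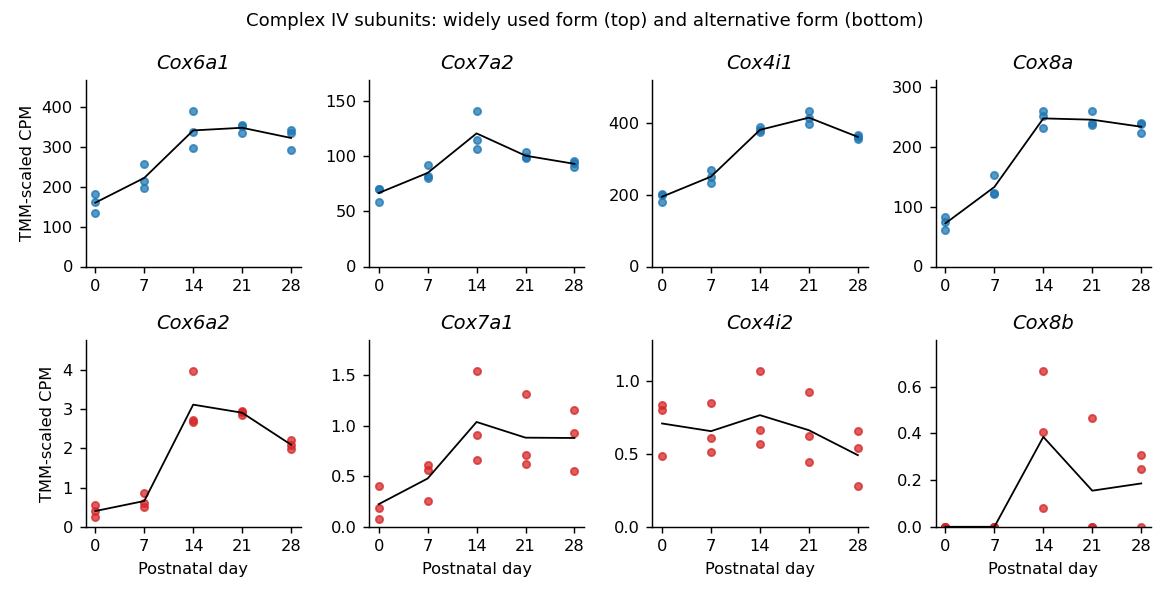
TMM-scaled CPM against postnatal day for the widely used form (top row) and the alternative form (bottom row) of complex IV subunits 6a, 7a, 4 and 8, with 1 point per library and a line through the means; each panel has its own axis from 0. Cox6a2 steps up between P7 and P14 together with its partner at a far lower level, and Cox4i2 does not step up.

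ATP synthase rose less than complex IV. Of the 5 subunits of the F1 head 4 were called higher, and of the 10 subunits of the membrane part and stalks 8 were, with median log2 fold changes of 0.50 and 0.48. Atp5b, the catalytic subunit, was the most abundant member: 996, 932 and 895 CPM at P0 and 1396, 1303 and 1230 CPM at P28 (0.48 ± 0.08, edgeR adjusted p = 2.14e-05). Atp5k, the small membrane subunit e, rose furthest, from 12.1, 8.55 and 9.78 CPM to 17.1, 23.2 and 31.9965 CPM (1.32 ± 0.22, edgeR adjusted p = 3.80e-05). Atp5c1, the rotating central shaft, was at 327, 292 and 294 CPM at P0 and at 374, 324 and 339 CPM at P28, so that the groups overlapped (0.19 ± 0.09, edgeR adjusted p = 0.0708).

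The ring that turns in the membrane is made of 1 protein encoded by the 3 genes Atp5g1, Atp5g2 and Atp5g3. Atp5g1 rose by 0.50 ± 0.10 and Atp5g3 by 0.45 ± 0.08 (edgeR adjusted p = 2.47e-04 and 6.36e-05), and Atp5g2 was not called at 0.42 ± 0.20 (edgeR adjusted p = 0.0734). Per kilobase, Atp5g1 held 46.6 ± 2.2% of the 3 at P0 and 47.7 ± 1.4% at P28, Atp5g3 42.9 ± 4.2% and 42.0 ± 1.9%, and Atp5g2 10.5 ± 2.2% and 10.4 ± 0.9% (SD, n = 3). The exact permutation p was 0.5, 0.9 and 0.9, in a design that cannot go below 0.1. Atp5g1 and Atp5g2 share 66.0% and 100% of their 50-base words with other annotated genes, so their split is uncertain.

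Ranked per kilobase of transcript within the members, Atp5b (663 ± 34 CPM per kilobase, SD, n = 3), Cox6a1 (548 ± 53) and Cox4i1 (472 ± 2) led at P28 as they had at P0. Cox8a moved from place 18 at P0 to place 4 at P28, and Uqcr11 from place 30 to place 11. Cox6a1 and Cox4i1 at P28 differed by more than their SDs, and Cox4i1 and Cox8a (412 ± 21) did too, whereas Uqcr11 (249 ± 52) could not be told from its neighbours. Sdha came from place 27 to place 13.

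The climb was spread over the first 2 weeks. Between P0 and P7, 62 members rose and none fell, where 21.0% and 17.8% of all tested genes did, 38.8% in all. The libraries of P0 and P7 did not overlap for 63 members, beside 49.7% of all genes. Between P7 and P14 53 rose and 1 fell, beside 21.7% and 20.5% of all genes, 42.2% in all. The 1 that fell was Cox4nb. The 2 comparisons share the P7 libraries. Of the members, 41 rose at both steps, 21 at the first only, 12 at the second only and 16 at neither, and 71 of the 76 members higher at P28 had risen at either step. Among called members, the largest values of the first step were those of Ndufs5 (1.51 ± 0.28) and Cox7b (0.87 ± 0.20), and of the second those of Cox6a2 and Atp5sl (1.09 ± 0.21), all called by edgeR with adjusted p of 0.00247 or less. At the first step 9 of 9 members of complex III and 11 of 11 of complex IV were called, and the complex I core at the second, with 7 of 7 after 5 of 7. The F1 head of ATP synthase had 4 of 5 calls at the first step and 1 of 5 at the second. Thinning all libraries to the smallest cut the 62 calls of the first step to 40, 36 of the 62 were kept in all alternatives, and Uqcrh and Cox7c each lost theirs in 6 of 21, Cox5a in 4 and Cox7a2 in 3.

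After P14 few members were called. Between P14 and P21, 4 of 90 members rose and 5 fell, fewer than the 9.93% and 10.6% of all tested genes. Those that rose were Cox4nb, Ndufs7 (0.36 ± 0.12, edgeR adjusted p = 0.0319) and the large core proteins of complex III, Uqcrc1 (0.32 ± 0.08, edgeR adjusted p = 0.00655) and Uqcrc2 (0.30 ± 0.08, edgeR adjusted p = 0.00963). Those that fell were the complex I assembly factors Ndufaf2 (-0.61 ± 0.16, edgeR adjusted p = 0.00967) and Ndufaf1 (-0.52 ± 0.14, edgeR adjusted p = 0.0153) and the small subunits Uqcrq, Cox6b1 and Cox6c. Ndufaf2 was at 13.6, 18.2 and 13.8 CPM at P14 and at 9.42, 9.51 and 10.6 at P21. Between P21 and P28 none rose and 5 fell (4.49% and 3.34% of all genes, 7.83% in all): Uqcrc2, Uqcrc1, Sdhd, Atp5a1 and Cox4nb. The log2 change was below 0 for 68 of the 90 members, with a median of -0.07, and for 7263 of all 14737 genes. Uqcrc2 was at 321, 325 and 315 CPM at P21 and at 268, 246.3 and 230 at P28 (-0.37 ± 0.08, edgeR adjusted p = 0.00557), back to its P14 level of 267, 259 and 256. Left out one at a time, P14 replicate 2 and P21 replicate 2 brought the 9 calls between P14 and P21 to 5 and 4, and any library of P21 or P28 brought the 5 calls between P21 and P28 to 2 or 3. The highest mean fell on P14 for 49 members, on P21 for 34 and on P28 for 5, and the lowest on P0 for 85.

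The movement between P14 and P21 followed transcript length among the members. Spearman's rho between length and log2 fold change was 0.41 over the 90 members. It was -0.03 over the 10468 tested genes of 371 to 4942 bases, the members' range, called all genes in this paragraph. The 45 members of at most 863 bases had a median log2 change of -0.09, and 12 of the 45 were above 0, while the 45 longer ones had a median of 0.02, with 25 above 0. Between P7 and P14 the order was the other way round, with medians of 0.43 for the shorter and 0.33 for the longer members and a rho of -0.27 (all genes -0.04). The rho was also negative between P0 and P7 (-0.28, all genes -0.10), between P0 and P28 (-0.30, all genes -0.065) and between P21 and P28 (-0.35, all genes 0.11). Over all genes the 457 shorter ones had a median of -0.046 between P14 and P21 and the 10011 longer ones 0.015. Between P7 and P14 these medians were 0.059 and 0.01, and between P0 and P28 0.223 and 0.029. The order was thus that of the members, but between P21 and P28 it was opposite (-0.042 and -0.026). The members range from 371 to 4942 bases among those tested and share libraries, so these values are a description.

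**Figure D4:**
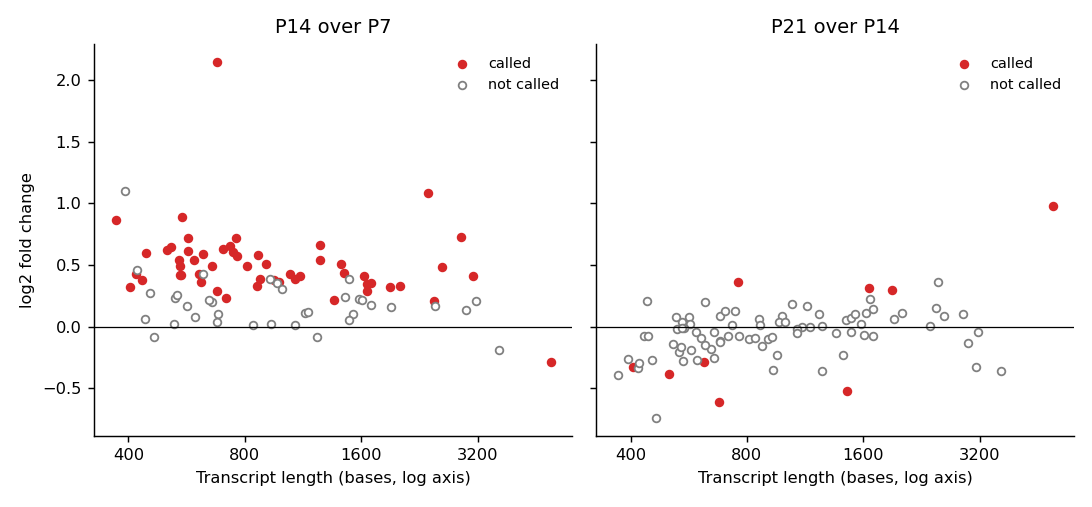
Log2 fold change against transcript length (log axis) for the 90 tested members, between P7 and P14 (left) and between P14 and P21 (right), with called genes in red. On the left nearly all points are above 0, and on the right the short transcripts lie mostly below 0 and the long ones on both sides of it.

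Cox4nb (Emc8) stood apart from every subunit. It was at 128.3, 136.4 and 124.952 CPM at P0, 123.6, 104.974 and 110 at P7, 98.3, 76.1 and 100.6 at P14, 197, 181 and 166 at P21, and 102.2, 98.3 and 113.954 at P28. The P21 libraries were above all other libraries, with a log2 fold change of 0.98 ± 0.10 from P14 (edgeR adjusted p = 4.74e-06) and -0.79 ± 0.10 to P28 (edgeR adjusted p = 1.70e-04). Cox4nb lies head to head with Cox4i1 in the GENCODE M21 annotation of GRCm38: Cox4i1 spans chr8:120668222-120674207 on the plus strand and Cox4nb chr8:120653914-120668573 on the minus strand, so their first exons overlap, and strandedness of the counting is not given. Cox4i1 itself was at 389, 382 and 376 CPM at P14 and at 435, 398 and 416 at P21 and was not called (0.12 ± 0.08, edgeR adjusted p = 0.261). Atp5sl (1.32 ± 0.21) and Atp5s (0.60 ± 0.15) rose between P0 and P28 (edgeR adjusted p = 1.66e-05 and 0.00144).

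Neighbouring pathways of energy metabolism were read from the same fit, in lists chosen with earlier results of these data known. Of 14 citric acid cycle genes 9 rose between P0 and P28 and none fell (median 0.60): Idh3b, a subunit of the NAD-linked isocitrate dehydrogenase, rose by 1.26 ± 0.08, and citrate synthase Cs was not called at 0.12 ± 0.08. All 8 genes of pyruvate entry rose, among them Pdk2, a kinase that shuts pyruvate dehydrogenase, by 2.96 ± 0.14, and Dlat, a subunit of that enzyme, by 1.06 ± 0.09. Of 16 glycolytic genes 14 rose and 1 fell, with a median of 1.57, above that of the oxidative phosphorylation genes. Over all tested genes 32.9% were called higher and 31.3% lower in this comparison. Eno2, the neuronal enolase, rose by 2.91 ± 0.09, from 151 ± 15 to 1146 ± 65 CPM (SD, n = 3), lactate dehydrogenase Ldhb by 1.92 ± 0.09, and Ldha was not called at 0.08 ± 0.08, while hexokinase Hk2 fell by 0.93 ± 0.22. The calls named here had edgeR adjusted p of 0.00119 or less.

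Of 15 genes for mitochondrial biogenesis 5 rose and 6 fell, near the shares of 32.9% and 31.3% over all tested genes. The coactivators Ppargc1a (0.72 ± 0.11) and Ppargc1b (2.02 ± 0.19) and the nuclear receptors Esrra (0.93 ± 0.15) and Esrrg (1.53 ± 0.21) rose (edgeR adjusted p of 2.22e-05 or less). The transcripts of the factors whose motifs were searched above fell: Nrf1 from 51.2 ± 4.8 to 27.1 ± 2.4 CPM (-0.94 ± 0.15), Gabpa from 50.4 ± 1.7 to 26.7 ± 3.6 CPM (-0.92 ± 0.17), its partner Gabpb1 by -0.66 ± 0.12 and Yy1 by -0.57 ± 0.18 (edgeR adjusted p of 0.0101 or less). Tfam, which packages mitochondrial DNA, was not called at -0.06 ± 0.11.

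Among single neurons the labels were first set against defining genes. Gad1, which makes the transmitter GABA, stood at 1933 CPM in CCK and 2863 in PV cells, pooled over the cells of a type, and at 8.75 in CA1 pyramidal cells, and the vesicular glutamate transporter Slc17a7 at 379 CPM in CA1 pyramidal, 1361 in burst and 1715 in regular cells against 66.5 and 59.5 in CCK and PV cells. Pvalb was at 338 CPM in PV and 0.648 in CCK cells, with a read in 8 of 14 PV cells. Cck did not separate the types, with 705 CPM in CCK and 688 in PV cells. Single CA1 cells also held markers of other types. Summed astrocyte markers reached 24970 CPM in a PV and 20760 in a pyramidal cell (medians 69.4 and 127.5). Microglial markers reached 12090 in a CCK and 13080 in a pyramidal cell (medians 198.8 and 33.3). GABAergic markers reached 8360 in a pyramidal cell and excitatory neuron markers 6182 in a CCK cell (medians 12.8 and 16.9). Subiculum cells held such markers too. Summed oligodendrocyte markers had a median of 3695 and a highest cell of 22900 CPM in burst cells, and 1442 and 11600 in regular cells. Their medians in CA1 were 68.0 in CCK, 107.9 in PV and 684.6 in pyramidal cells. Choroid plexus markers reached 4757 CPM in a burst cell (median 71.8). The part of such reads in the comparisons below, also those of CA1 with subiculum, was not tested. ERCC spike-in reads were present in 9 of 25 CA1 pyramidal, 6 of 19 CCK and 9 of 14 PV cells, with 45738 to 309851 reads each, and the other CA1 cells had 0 to 5. The spiked cells are treated as a batch below.

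Subiculum cells gave the oxidative phosphorylation genes the largest share of reads. Pooled over a type, the share was 3.06% in burst and 3.08% in regular cells, 2.26% in CCK, 2.10% in PV and 1.44% in CA1 pyramidal cells. Counting error alone is small (95% Clopper-Pearson intervals of 1.44 to 1.45% for CA1 pyramidal and 3.05 to 3.06% for burst cells), and the spread between cells is wide: 0.228, 1.44 and 5.05% as lowest, median and highest in CA1 pyramidal cells, 0.827, 1.96 and 4.54% in CCK, 0.237, 1.61 and 3.74% in PV, 1.68, 3.08 and 4.01% in burst, and 1.77, 3.13 and 4.80% in regular cells. The types overlap. The highest share in CA1 pyramidal cells came from cells with 662 and 276 detected genes. Subiculum cells also had more genes with a read, a median of 9860 in burst and 9704 in regular cells against 6085 in CCK, 4511 in PV and 2784 in CA1 pyramidal cells, and region and kit version cannot be told apart in any comparison of CA1 with subiculum.

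**Figure D5:**
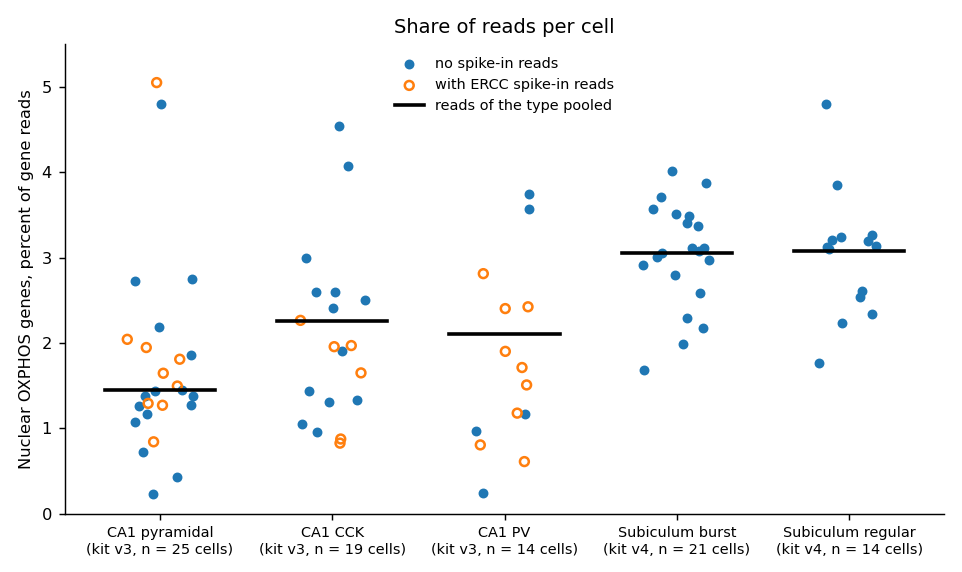
Share of gene reads that fell on the 94 genes, in percent, with 1 point per cell, by labelled type; open orange points are cells with ERCC spike-in reads, and black bars are the share after pooling the reads of a type. The subiculum cells sit mostly between 2 and 4%, the CA1 cells spread from 0.228 to 5.05%, and the spiked and other CA1 cells overlap.

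Burst and regular cells, which share kit and region, were alike in these genes. Of 86 members with at least 10 CPM in either type none differed 2-fold, against 5.46% of all such genes higher and 7.67% lower, and the median log2 ratio was 0.01. The widest ratios were those of Sdhaf1 (0.548, 95% Clopper-Pearson interval 0.490 to 0.614), Ndufb5 (0.733, 0.708 to 0.759), Sdha (0.807, 0.786 to 0.829), Ndufaf2 (1.31, 1.14 to 1.52), Atp5d (1.197, 1.169 to 1.225) and Atp5e (1.18, 1.12 to 1.25), burst over regular, and these intervals cover counting error only. Weighting cells equally, Sdhaf1 stood at -0.31 and Ndufb5 at -0.49 on the log2 scale. Of 8 oligodendrocyte markers 7 were at least 2-fold higher in burst than in regular cells, and their part in these ratios was not tested.

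In CA1, interneurons had higher pooled levels than pyramidal cells. CCK against pyramidal cells gave a median log2 ratio of 0.68 over 86 members, against 0.17 over all genes, with 22 members at least 2-fold higher and 1 lower (32.5% and 24.7% of all genes). PV against pyramidal cells gave 0.47, against 0.12 over all genes, with 19 higher and 3 lower (33.5% and 27.6%). With equal weight per cell 21 members were higher in PV cells and 14 lower, and after thinning 18 and 11. For CCK the lower count of 1 became 8 and 3. The share of all genes past 2-fold was not counted in these settings, so these counts have no share beside them. The medians were then 0.30 and 0.21 for PV (all genes -0.11 and -0.12). For CCK they were 0.54 and 0.55 (all genes 0.32 and 0.23). The result was not the same in the 2 batches. Among cells without spike-ins the medians were 0.89 for CCK and 0.95 for PV, above 0.22 and -0.19 over all genes, and among spiked cells 0.28 and 0.20, below 0.67 and 0.59 over all genes. Read against all genes, the difference therefore changed its direction with the batch. PV against CCK cells gave -0.16 (all genes -0.04), 0.00 in spiked (all genes 0.022) and -0.09 in other cells (all genes -0.385). Pooled over both batches, 3 members were at least 2-fold higher and 4 lower, where 45.3% of all genes differed 2-fold in either direction. Equal weight per cell gave 5 higher and 14 lower and thinning 4 and 15, again without a counted share of all genes. The medians were then -0.25 and -0.32 beside -0.44 and -0.35 over all genes.

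The widest ratios of single members between CA1 interneurons and pyramidal cells went both ways. Uqcrfs1 had a lowest, median and highest cell of 0, 210.7 and 635 CPM in PV, 0, 139 and 747 in CCK and 0, 0.333 and 366 in pyramidal cells, and pooled levels of 364, 232 and 43.0 CPM. PV over pyramidal was 8.47-fold (95% Clopper-Pearson interval 8.002 to 8.964), and it was above 1 in both batches, with 461 against 154 CPM in spiked and 193 against 17.7 in other cells. Ndufs4, an accessory subunit of complex I, was at 189 CPM in PV, 131.4 in CCK and 37.7 in pyramidal cells, with 161 against 28.6 in spiked and 238.2 against 39.7 CPM in other PV and pyramidal cells. Ndufs5 (40.5 against 8.34 CPM, PV over pyramidal) and Atp5s (44.7 against 10.3 CPM, CCK over pyramidal) followed. Ndufaf3 was lower in PV than in pyramidal cells, at 17.9 against 38.1 CPM, and so was Sdhaf1 at 7.61 against 20.4 CPM, but for Sdhaf1 the batches went opposite ways, with 7.75 against 109.3 CPM in spiked and 7.35 against 0 in other cells. The levels of Cox4nb (13.7 against 76.3 CPM), Ndufa2 (71.0 against 115.4) and Ndufv3 were lower in CCK than in pyramidal cells. Between PV and CCK cells the widest ratios were those of Atp5sl (3.38), Ndufaf1 (3.22) and Cox4nb (3.04) and of Atp5s (0.314), Ndufaf3 (0.347) and Ndufaf4 (0.381). Ndufaf1 went opposite ways in the batches, with 127.8 against 0 CPM in spiked and 32.3 against 53.4 in other cells.

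CA1 pyramidal cells against all subiculum cells gave a median log2 ratio of -1.15 over 86 members, against -0.23 over all genes, with 47 members at least 2-fold lower and 2 higher, where 35.1% and 25.7% of all genes were. Complex IV was furthest apart at -1.72 over 11 members. Cox8a was at 117.4 CPM in CA1 pyramidal cells (0, 71.3 and 333 CPM in the lowest, median and highest cell) and at 871 in subiculum cells (302, 777 and 1586). Uqcrfs1 (43.0 against 340 CPM) and Ndufs7 (61.3 against 467) were as far apart. Sdhc (168.5 against 70.1 CPM), Atp5g2 (47.0 against 22.5) and Cox7c (115.5 against 69.9) were higher in CA1, and so was Cycs, at 210 against 141 CPM. Cox7c, Atp5g2 and Cycs share 53.0%, 100% and 28.5% of their 50-base words with other annotated genes, so these levels are uncertain. In CCK and PV cells Cycs stood at 416 and 393 CPM, above both kinds of subiculum cell (151 and 128.2).

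The muscle form Cox6a2 gave reads in 3 of 19 CCK, 3 of 14 PV, 0 of 25 CA1 pyramidal, 10 of 21 burst and 4 of 14 regular cells, with pooled levels of 2.52, 2.95, 0, 6.46 and 1.09 CPM. For the pooled CA1 pyramidal reads, a limit of 3 reads stands for 0.0951 CPM. That limit covers counting error only and does not bound the level in the type, since few cells can hold most reads. A single cell held 60.5% of the reads in CCK and 58.9% in PV cells, and 36.9% in burst cells. Cox7a1 had reads in 1 CCK cell, 5 burst and 4 regular cells, and Cox4i2, Cox6b2, Cox8b and Cox7b2 had between 0 and 19 reads in any type. Of the 6 muscle markers, 3 were at 0 in CCK, 5 in PV, 4 in CA1 pyramidal, 2 in burst (Mb and Ckm) and 1 in regular cells. Summed over the list, the median cell had 69.8 CPM in burst, 34.3 in regular, 2.83 in CCK and 0 in PV and CA1 pyramidal cells, and the part of this in the Cox6a2 reads was not tested.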

How the data were processed

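The authors deposited 1 table of read counts per gene for 15 tissue libraries and 93 cells, with whole-number counts and 92 ERCC spike-in rows, which were left out of totals. Per the submitters' processing notes, the builds were mm10 and hg19 and the tools HTSeq, STAR, Trim Galore, cutadapt and FastQC, with no versions. Strandedness is not given in the sources used here. The labels call the tissue replicates independent, and no 2 libraries were identical.

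Tissue counts were tested with edgeR 4.0.16 (R 4.3.3, limma 3.58.1; TMM scaling, filterByExpr, robust quasi-likelihood fit with age as factor over all 15 libraries), which kept 14737 of 19485 genes with a read at a common biological coefficient of variation of 0.119. Genes with a Benjamini-Hochberg adjusted p under 0.05 were called. The standard error is the log2 fold change divided by the root of the F statistic. DESeq2 1.42.0 was an alternative, and the scripts were tested on simulated data. Replicate numbers did not pair libraries: 6 of 30 correlations of same-numbered deviations exceeded 0.1.

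For cells, reads were pooled per type, ratios carry 95% Clopper-Pearson intervals that cover counting error only, and medians use members reaching 10 CPM in 1 type or both. Reads without molecular identifiers are not independent molecules. CA1 cells with at least 100 ERCC reads were called spiked. Thinned cells had 200000 reads. A count of 0 was given a limit of 3 reads. Levels per kilobase use 1 GENCODE M21 transcript per gene, whose 50-base words were compared with all other genes. Promoters are from RefSeq (GRCm38.p6). Figures were drawn with matplotlib 3.10.9, and tables were handled in pandas 2.3.3 with scipy 1.17.1, under Python 3.11.15 with numpy 2.4.6.

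The members and lists were chosen with earlier results of these data known. Genes were named by rule: all alternative forms, Cycs, Cyc1, Sdha, Uqcrfs1 and Atp5b, the extremes of each role group, the 2 largest called changes each way per step, members called against the majority, and the 3 largest and 3 smallest ratios per cell pair at 20 CPM or more. Other genes named were chosen after their values were seen. Some genes that the rule names are not reported here.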

Additional observations from a re-analysis of the deposited data

How the results depend on the processing

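Of the 78 members called between P0 and P28, 67 kept their call in all alternatives run, as did 36 of 62 for P7 against P0, 40 of 54 for P14 against P7, 2 of 9 for P21 against P14 and 1 of 5 for P28 against P21. Leaving out single libraries gave 72 to 80 calls for P28 against P0, 42 to 62 for P7 against P0, 44 to 57 for P14 against P7, 4 to 12 for P21 against P14, 2 to 6 for P28 against P21 and 81 to 86 over all ages. With the replicate number as a block the counts were 77, 59, 56, 9, 5 and 85, and Ndufaf4 lost its call. The numbers do not pair the libraries: correlations ran from -0.286 to 0.181, and 7 of 30 were best with their own number.

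Thinning libraries to the smallest gave 40 calls for P7 against P0 and 2 for P28 against P21, where no count filter gave 3, the 6 libraries alone 3 and DESeq2 12. It turned the sign of the uncalled Ndufc2 (0.043) and Sdhb (-0.008). Restricted to the 51 tested members sharing under 5% of their 50-base words, an alternative chosen after seeing the data, calls were 43, 31, 29 and 3 for P28 against P0, P7 against P0, P14 against P7 and P28 against P21, since fewer members are counted.

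Without the 50 most abundant genes in the total, tissue shares were 0.968, 1.22, 1.47, 1.47 and 1.35% from P0 to P28. With equal weight per cell, shares were 2.07% in CCK, 1.79% in PV, 1.74% in CA1 pyramidal, 3.03% in burst and 3.03% in regular cells, and CA1 pyramidal cells of at least 200000 reads had 1.43%. Spiked and other cells, split after seeing the data, had shares of 1.93 and 2.53% in CCK, 1.86 and 2.54% in PV and 1.51 and 1.43% in CA1 pyramidal cells.

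The median log2 ratio of PV to CA1 pyramidal cells was 0.30 with equal weight (all genes -0.11) and 0.21 after thinning (all genes -0.12). It was 0.20 in spiked (all genes 0.59) and 0.95 in other cells (all genes -0.19). That of CCK to CA1 pyramidal cells was 0.54, 0.55, 0.28 and 0.89 in the same order (all genes 0.32, 0.23, 0.67 and 0.22). That of PV to CCK cells was -0.25 with equal weight (all genes -0.44) and -0.32 after thinning (all genes -0.35). It was 0.003 in spiked (all genes 0.022) and -0.093 in other cells (all genes -0.385). The cause of these shifts was not tested. Leaving out single libraries, the P28 minus P0 isoform share ran from -0.0740 to 0.0602 points for Ndufa4l2, from -1.26 to 0.878 for Atp5g2 and from -3.11 to 1.10 for Atp5g3.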

Other observations

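Among assembly factors outside the symbol rule, 10 of 21 rose in hippocampus between P0 and P28, 2 fell and 9 were not called, beside 32.9% higher and 31.3% lower over all tested genes, with a median log2 fold change of 0.23. Cox17, a copper chaperone for complex IV, rose by 2.18 ± 0.21, and Sco1, another copper chaperone (-0.52 ± 0.16), and Cox19 (-0.53 ± 0.13) fell, all called by edgeR at an adjusted p under 0.05.

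Another list held 9 genes: carriers and channels for adenine nucleotides and phosphate in the mitochondrial membranes, creatine kinases and the inhibitor of ATP synthase. Of these, 7 rose and 2 fell in the same comparison. The shares over all tested genes were 32.9% and 31.3%. Ckmt1, the mitochondrial creatine kinase, rose by 2.34 ± 0.10 on the log2 scale. The channel gene Vdac3 (-0.29 ± 0.10) and Atpif1 (-0.36 ± 0.09), the inhibitor of ATP synthase running in reverse, fell, all called by edgeR at an adjusted p under 0.05.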
